A study of Homo sapiens with 6 samples.

Results

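The genes described here are 41 genes of the G1/S transition and of DNA replication, chosen by name and found among 19775 genes on the arrays. They comprised 7 G1 cyclins and kinases, 10 genes of origin licensing, 16 of helicase activation and the replication fork, 4 of nucleotide supply and 4 of chromatin assembly and histone mRNA. For each gene the values are those of the brightest of its probe sets, by the mean of the 6 arrays, and 39 of the 41 lay above the level minimum of 4.42 (log2, the median over probe sets that are no controls) and were tested among 12012 genes. The other 2 were CCND1 and CCND2, the cyclins D1 and D2, whose probe sets all lay below that minimum.

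RNA was measured once per group in 3 human lines of Burkitt lymphoma, a B-cell lymphoma in which a translocation drives MYC. The lines were Namalwa, Raji and Ramos, and from every one came 1 array of cells labelled empty and 1 of cells labelled miR26a, so that each group held 3 arrays. All 6 samples were transfected cells exposed to doxycycline (Dox) at 0.5 µg/ml for 72 h, the agent that switches on the microRNA, and the empty samples are listed with the same dose and time. The promoter of the construct, and whether the cells were pools or single clones, are not given in the sources used here. No source used here names separate cultures within a line and group. The p-values between groups and between lines rest on how far the change between groups varied across the 3 lines. That variation may in part be technical. They hold no measure of the spread between cultures of 1 line.

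A cell enters S phase when cyclin D and cyclin E kinases inactivate the retinoblastoma protein and release E2F transcription factors, which switch on many replication genes. In G1, the origin recognition complex with CDC6 and CDT1 loads the MCM helicase onto origins, and kinases then recruit CDC45 and GINS to start it. Polymerases copy the DNA behind the helicase with the sliding clamp PCNA, ribonucleotide reductase and thymidylate synthase supply nucleotides, and chromatin assembly factor 1 places histones on the new strands. MYC, which is overexpressed in Burkitt lymphoma, is known to promote this programme, and the study's title places miR-26a downstream of MYC and upstream of EZH2, the Polycomb methyltransferase.

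The inducible microRNA is shown because it is what distinguishes the groups. Human miR-26a-5p has the same mature sequence at both of its gene copies in the RefSeq table of GRCh38.p14, MIR26A1 at chr3:37969413-37969434 (plus strand) and MIR26A2 at chr12:57824658-57824679 (minus strand). Capitals mark the seed, bases 2 to 8, 5′ to 3′. A transcript site that pairs with this seed reads TACTTGA. Transcript sequences were not used here, so no site was sought in the members.
miR-26a-5p: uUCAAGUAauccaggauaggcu

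Promoter windows are shown for the members with the smallest p in licensing (CDC6 and CDT1) and for GINS2 and CHAF1A, which had the smallest p in the other steps next to CCNE2. Each runs from 250 bases before to 50 bases after the gene's start in the RefSeq table (GRCh38.p14) and is written 5′ to 3′ on the gene's strand. Capitals mark E2F words (TTTCCCGC, TTTCGCGC, TTTGCCGC or TTTGGCGC) and the CCAAT box, each on either strand. The windows are CDC6 at chr17:40287629-40287928 (plus strand), CDT1 at chr16:88803539-88803838 (plus strand), GINS2 at chr16:85688905-85689204 (minus strand) and CHAF1A at chr19:4402390-4402689 (plus strand).
CDC6: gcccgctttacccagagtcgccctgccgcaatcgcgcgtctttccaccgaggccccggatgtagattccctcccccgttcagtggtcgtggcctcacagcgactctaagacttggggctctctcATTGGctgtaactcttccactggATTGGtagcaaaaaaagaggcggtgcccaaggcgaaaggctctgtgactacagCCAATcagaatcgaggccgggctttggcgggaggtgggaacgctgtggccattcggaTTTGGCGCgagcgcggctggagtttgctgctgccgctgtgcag
CDT1: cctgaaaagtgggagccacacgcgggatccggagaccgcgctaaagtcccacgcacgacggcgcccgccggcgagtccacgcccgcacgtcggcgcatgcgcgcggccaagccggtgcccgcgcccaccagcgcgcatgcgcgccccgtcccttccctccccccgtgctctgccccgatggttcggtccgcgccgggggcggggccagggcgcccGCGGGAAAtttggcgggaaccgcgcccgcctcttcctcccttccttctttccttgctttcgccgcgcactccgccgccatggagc
GINS2: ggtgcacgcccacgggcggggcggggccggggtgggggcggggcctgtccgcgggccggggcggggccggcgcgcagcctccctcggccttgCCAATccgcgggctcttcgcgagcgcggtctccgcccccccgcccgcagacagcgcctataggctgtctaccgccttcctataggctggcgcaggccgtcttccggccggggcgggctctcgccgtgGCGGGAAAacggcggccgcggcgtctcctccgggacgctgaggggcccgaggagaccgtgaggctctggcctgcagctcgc
CHAF1A: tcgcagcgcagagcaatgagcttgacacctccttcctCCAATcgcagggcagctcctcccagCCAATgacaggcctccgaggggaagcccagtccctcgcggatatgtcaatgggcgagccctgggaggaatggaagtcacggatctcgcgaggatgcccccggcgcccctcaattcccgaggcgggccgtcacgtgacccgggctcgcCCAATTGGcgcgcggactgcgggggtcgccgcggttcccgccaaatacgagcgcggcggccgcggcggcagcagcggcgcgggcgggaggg

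CDC6 had 1 E2F word, TTTGGCGC, at positions 7 to 14 from the start, and 3 CCAAT boxes that began at -126, -103 and -50. CDT1 and GINS2 both held the word GCGGGAAA, the reverse complement of TTTCCCGC, at positions -35 to -28 and -31 to -24, and GINS2 also held a CCAAT box. CHAF1A held none of the 4 E2F words. Other forms of the E2F site were not searched for, here or in the counts below, so a window without these words may hold another form. It held 4 CCAAT matches, of which the last pair overlap in CCAATTGG, and an E-box (CACGTG) at -59 to -54.

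Of the 39 tested members, 35 matched a promoter in the table, and CCNE2, CDK2, MCM4 and MCM5 did not. An E2F word lay in 16 of these 35 windows (45.7%), against 9 of 53 windows (17%) of other replication genes, 5.24% of 9697 windows of tested genes and 3.33% of all 27305 windows. MCM6 held 4 such words, and MCM2, MCM3 and MCM7 held 2 each. The CCAAT box was in 20 of 35 member windows (57.1%), in 50.9% of those of other replication genes, in 36.9% of tested genes and in 35.7% of all windows. The cell cycle element CHR (TTTGAA, either strand) was in 2 of 35 (5.71%), against 5.66%, 9.9% and 15.4% in the same order. The E-box, the word bound by MYC, was in 5 of 35 (14.3%), against 18.9%, 10.2% and 7.43%. Words of different kinds were counted separately where they overlapped. Members with an E2F word had a median change of -0.36 between the groups and those without one -0.38. The medians with and without the word were -0.42 and -0.32 for CCAAT, -0.33 and -0.41 for CHR and -0.29 and -0.39 for the E-box, with 2 members holding CHR and 5 the E-box. These differences were not tested. A match is a description of letters and not a binding site.

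The 6 arrays had medians of 4.36 to 4.44 (log2). All 8 matched B cell markers (CD79A, CD79B, MS4A1, PAX5, CD22, BLK, VPREB3 and CD72) lay at or above the level minimum on every array, whereas 1 or 2 of 8 T and NK cell markers, 0 or 1 of 6 monocyte markers and 2 or 3 of 6 fibroblast markers did. CD3D, CD3G, CD2, CD14, LYZ, COL3A1 and LUM were below it on all arrays, and COL1A1 lay between 6.53 and 7.15 on all. CD3E was also at or above the minimum on all 6 arrays, CD7 and DCN on 5 each, COL1A2 on 4 and CSF1R on the 2 Raji arrays. EZH2, the gene named in the study's title, was lower on each miR26a array, with log2 changes of -0.76, -0.31 and -0.61 in Namalwa, Raji and Ramos (limma adjusted p = 0.106). The Namalwa empty array stood apart in RNA quality: the 3′ minus 5′ difference of its ACTB controls was 3.58 log2, where the remaining arrays had 1.80 to 1.98. The 18S control mean was 6.68 on that array, 8.99 on the Ramos empty array and 7.49 to 7.72 on the rest.

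Replication genes were lower with miR26a at every step and in each line, by sizes well under 2-fold. Of the 39 tested members, 36 were lower in all 3 lines and 0 were higher in all 3, against 19.6% and 15.5% of all genes tested. The median change of the members was -0.37 log2, against -0.01 for all genes tested, and the line medians were -0.37, -0.39 and -0.37 in Namalwa, Raji and Ramos. The mean changes of single members ran from -0.73 for CDC6 to 0.11 for CDK4. In these bulk samples, fewer cells in S phase and less RNA per cell cannot be told apart.

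No member passed the test at an adjusted p of 0.05, and no other gene tested did: limma called 0 of 12012 genes (0%), so the values below are differences that did not pass. At an unadjusted p under 0.05, 32 members were lower and 0 higher, where 7.33% of all genes were lower and 5.56% higher. At an adjusted p under 0.1 there were 6 members, all lower, against 0.416% of all genes: CCNE2, CDC6, CDT1, GINS2, CHAF1A and RFC4. With only 3 pairs, a two-sided exact sign-flip test of 1 gene cannot give less than p = 0.25. An intensity trend and robust prior called 10 of the 39 members, all lower (0.591% of all genes were called lower), and so did leaving out Raji (1.02%). A level minimum at the 75th percentile called 6 of 38 members, all lower, against 0.531% of the genes tested there. Under the other settings tried, 0 members passed at 0.05. The Namalwa empty array had the large ACTB difference. With Namalwa left out, 38 of the 39 members were lower in both other lines, as were 30.3% of all genes.

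**Figure D1:**
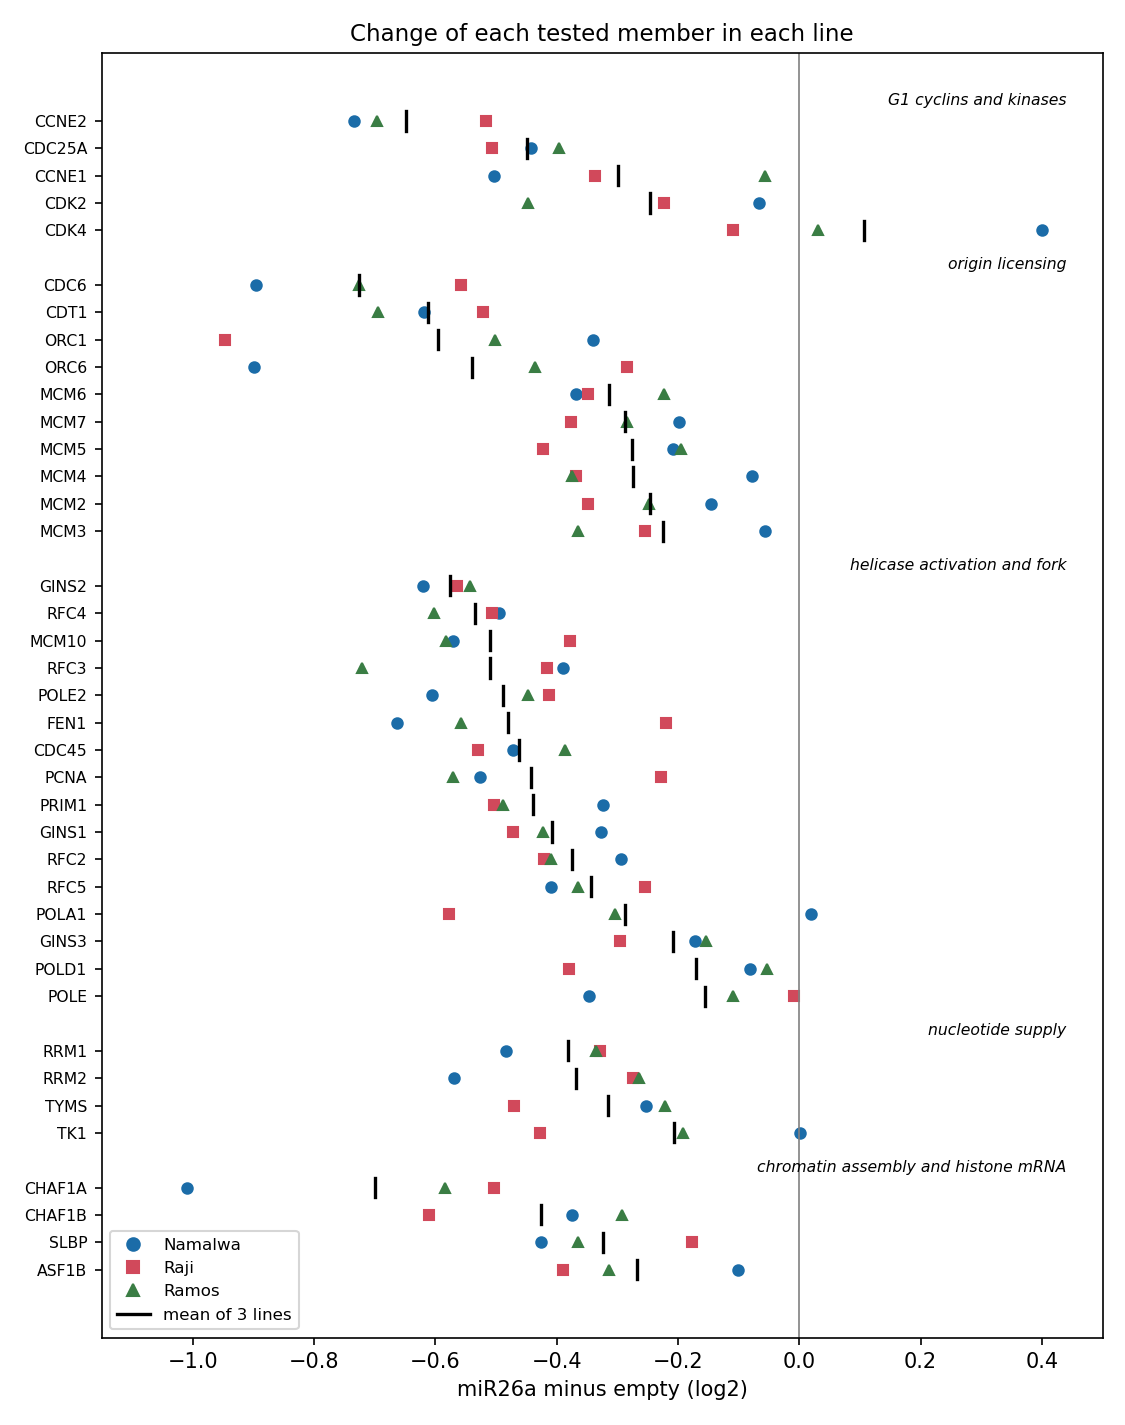
Change of each of the 39 tested members in each line, as the miR26a array minus the empty array (log2, horizontal axis), with 1 symbol per line and a bar at the mean of the 3 lines. Members are grouped by step, and 36 of 39 have all symbols left of 0, the exceptions being CDK4, POLA1 and TK1.

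Among the 5 tested G1 cyclins and kinases, 4 were lower in all 3 lines and the median change was -0.30. Cyclin E2 (CCNE2), which with CDK2 drives entry into S phase, stood at 6.96 on the empty and 6.23 on the miR26a array of Namalwa, at 6.25 and 5.73 in Raji and at 6.40 and 5.71 in Ramos. Every empty array lay above every miR26a array, although the lowest empty and the highest miR26a value differed only in the second decimal. The mean of its 3 changes was -0.65 (SE 0.10, with 95% limits of -0.88 and -0.42), or 1.57-fold (limma adjusted p = 0.0730).

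CDC25A, the phosphatase that removes the inhibitory phosphate from CDK2, stood at 8.14 and 7.70 in Namalwa, 7.79 and 7.28 in Raji and 8.44 and 8.04 in Ramos. The changes of -0.44, -0.51 and -0.40 were close in the 3 lines, but the groups overlapped because the lines differ in level. Its mean change was -0.45 (SE 0.10, limma adjusted p = 0.119). A further CDC25A probe set was at -0.29 and another at -0.05, and the mean of all 3 was at -0.26. Cyclin E1 (CCNE1) was less even between lines: it stood at 7.93 and 7.43 in Namalwa, 6.69 and 6.36 in Raji, and 7.42 and 7.36 in Ramos. The Ramos pair barely differed, and the mean was -0.30 (SE 0.12, limma adjusted p = 0.315), or -0.20 without Namalwa and -0.16 with the mean of its probe sets.

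CDK2 itself, the partner of both E cyclins, had changes of -0.07, -0.22 and -0.45 in Namalwa, Raji and Ramos, with a mean of -0.25. CDK4, the partner of the D cyclins, was the only member with a mean above 0. It stood at 9.35 and 9.75 in Namalwa, 9.45 and 9.34 in Raji, and 9.86 and 9.89 in Ramos. The Namalwa pair differed most, upward, and the mean of 0.11 (SE 0.12, limma adjusted p = 0.772) turned to -0.039 without Namalwa and was 0.22 without Raji. The brightest probe set of the D cyclin CCND1 ran from 3.34 to 3.92 and that of CCND2 from 3.68 to 4.01 over the 6 arrays, all below 4.42.

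**Figure D2:**
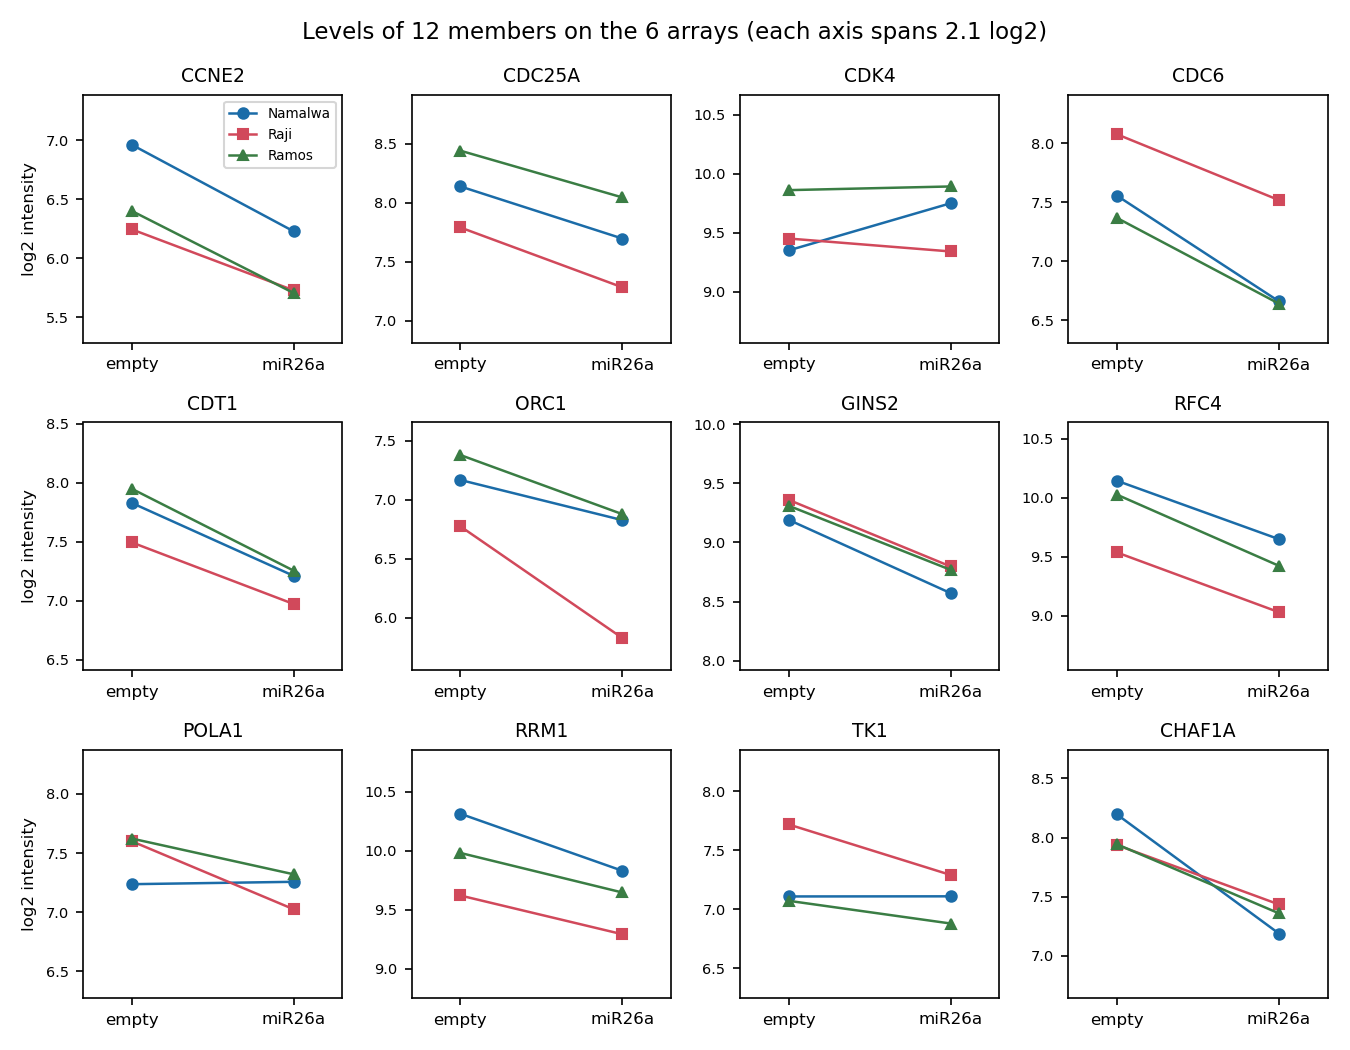
Levels (log2 intensity, vertical axis) of 12 members on the empty and miR26a array of each line, each line joined by a segment and every panel spanning the same range. The segments slope down in every line except those of CDK4 (Namalwa and Ramos), POLA1 (Namalwa) and TK1 (Namalwa).

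All 10 tested licensing genes were lower in all 3 lines, with a median of -0.30. The loading factors ORC1, ORC6, CDC6 and CDT1 had mean changes between -0.73 and -0.54, and the MCM helicase subunits between -0.31 and -0.23. CDC6, the ATPase that loads the helicase, had the largest mean change of all members. It stood at 7.56 and 6.66 in Namalwa, 8.08 and 7.52 in Raji, and 7.37 and 6.64 in Ramos. The miR26a array was the lower one in each pair, but Raji ran above the other lines, so that its miR26a value exceeded the Ramos empty value. The mean was -0.73 (SE 0.11, with 95% limits of -0.97 and -0.48), or 1.65-fold, and by its p CDC6 ranked 6 among all genes tested (limma adjusted p = 0.0730).

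CDT1, which brings the MCM complex to the origin and is destroyed after licensing, stood at 7.83 and 7.21 in Namalwa, 7.49 and 6.97 in Raji, and 7.95 and 7.25 in Ramos. All 3 empty arrays lay above all 3 miR26a arrays. Its mean was -0.61 (SE 0.10, limma adjusted p = 0.0730). The probe sets used for CDT1, CHAF1A and ORC6 are of a design class that may also bind other transcripts, and ORC6 had no further probe set. The other CDT1 probe set above the minimum was at 0.23, -0.57 and -0.43 in Namalwa, Raji and Ramos.

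ORC1, the largest subunit of the origin recognition complex, stood at 7.17 and 6.83 in Namalwa, 6.77 and 5.83 in Raji, and 7.38 and 6.88 in Ramos. The Raji pair lay furthest apart, at -0.95 against -0.34 and -0.50, and the groups overlapped. The mean was -0.60 (SE 0.13, limma adjusted p = 0.113). ORC6, the smallest subunit, had its largest difference in Namalwa instead, at -0.90, with -0.28 for the Raji pair and -0.44 for the Ramos pair (mean -0.54, limma adjusted p = 0.130).

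The 6 subunits of the MCM2 to MCM7 ring, the motor of the replicative helicase, had close mean changes: -0.25 for MCM2, -0.23 for MCM3, -0.27 for MCM4, -0.28 for MCM5, -0.31 for MCM6 and -0.29 for MCM7. Their adjusted p-values lay above those of the loading factors, from 0.231 for MCM6 to 0.423 for MCM3 (limma). By line, the median of the subunits was -0.17 (Namalwa), -0.36 (Raji) and -0.27 (Ramos). That of the loading factors was -0.76, -0.54 and -0.60. The gap between these subgroups was seen in the values of the probe sets used and was not tested. It was widest in Namalwa, whose empty array had the large ACTB difference. Further probe sets above the minimum were at -0.50 for CDC6 and -0.26 for CDT1. Those of the MCM subunits ran from -0.43 (MCM7) to 0.25 (MCM4), so these ranges overlapped. MCM4 stood at 8.72 and 8.64 in Namalwa, 9.76 and 9.40 in Raji, and 9.12 and 8.74 in Ramos. Its Namalwa pair almost coincided and its groups overlapped.

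At the fork, 15 of 16 tested members were lower in all 3 lines, with a median of -0.44, the lowest of the 5 steps. GINS2, a subunit of the GINS complex that with CDC45 activates the helicase, stood at 9.19 and 8.57 in Namalwa, 9.36 and 8.80 in Raji, and 9.31 and 8.77 in Ramos. The groups did not overlap, and the changes of -0.62, -0.56 and -0.54 were close to each other. The mean was -0.58 (SE 0.10, 95% interval -0.80 to -0.35), a 1.49-fold difference (limma adjusted p = 0.0730). The other GINS2 probe set above the level minimum was at -0.06, and the mean of the gene's probe sets, those below the minimum included, was at -0.22 (limma adjusted p = 0.293). Its partners GINS1 and GINS3 were at -0.41 and -0.21, and CDC45 was at -0.46 (limma adjusted p = 0.140, 0.434 and 0.114).

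MCM10, which helps to start the assembled helicase and is no part of the ring, stood at 8.35 and 7.78 in Namalwa, 7.87 and 7.49 in Raji, and 8.51 and 7.93 in Ramos. The empty array was higher in each pair, with overlap between lines. The mean was -0.51 (SE 0.10, limma adjusted p = 0.101), and its other 2 probe sets, at -0.44 and -0.47, gave like values.

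The clamp loader, replication factor C, opens PCNA and places it on the primer. Its subunit RFC4 stood at 10.14 and 9.65 in Namalwa, 9.53 and 9.03 in Raji, and 10.02 and 9.42 in Ramos. Each pair was apart by a like amount, but the low Raji levels made the groups overlap. The mean was -0.53 (SE 0.10), a 1.45-fold difference (limma adjusted p = 0.0826). RFC3 stood at 9.56 and 9.17 in Namalwa, 8.94 and 8.52 in Raji, and 10.12 and 9.40 in Ramos, with a mean of -0.51 (limma adjusted p = 0.113) and its widest pair in Ramos. RFC2 and RFC5 were at -0.37 and -0.34. PCNA, the clamp, was at -0.53, -0.23 and -0.57 in Namalwa, Raji and Ramos, and FEN1, the nuclease that trims Okazaki fragments on the clamp, was at -0.66, -0.22 and -0.56.

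The 5 polymerase and primase subunits had mean changes between -0.49 and -0.15. POLE2, an accessory subunit of polymerase epsilon, stood at 8.69 and 8.08 in Namalwa, 8.02 and 7.61 in Raji, and 7.33 and 6.88 in Ramos, and its mean was -0.49 (limma adjusted p = 0.106). Each pair was apart by a like amount, and the lines were further apart than the groups. POLE and POLD1, the catalytic subunits of polymerases epsilon and delta, were at -0.15 and -0.17 (limma adjusted p = 0.600 and 0.557). PRIM1, the primase that makes the RNA primer, was at -0.44, and its partner POLA1, the catalytic subunit of polymerase alpha, was at -0.29. POLA1 stood at 7.24 and 7.26 in Namalwa, 7.60 and 7.02 in Raji, and 7.62 and 7.32 in Ramos. Both Namalwa arrays were alike and both other pairs were lower with miR26a. The mean was -0.44 without Namalwa and -0.14 without Raji.

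In nucleotide supply, 3 of 4 members were lower in all 3 lines and the median was -0.34. RRM1 and RRM2 encode the large and small subunits of ribonucleotide reductase, which makes deoxyribonucleotides. RRM1 stood at 10.31 and 9.83 in Namalwa, 9.62 and 9.29 in Raji, and 9.98 and 9.65 in Ramos, with a mean of -0.38 (SE 0.10, limma adjusted p = 0.153). RRM2 stood at 10.28 and 9.72, 9.78 and 9.51, and 9.99 and 9.72 in the same order, with a mean of -0.37 (limma adjusted p = 0.195). Within each line the miR26a array was lower for both subunits. Across lines the groups overlapped for RRM1 but not for RRM2.

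TYMS, thymidylate synthase, stood at 11.07 and 10.82 in Namalwa, 10.90 and 10.42 in Raji, and 11.05 and 10.83 in Ramos, with a mean of -0.32 (limma adjusted p = 0.253). All its empty values lay above all its miR26a values. TK1, the thymidine kinase of the salvage pathway, stood at 7.11 and 7.11 in Namalwa, 7.72 and 7.29 in Raji, and 7.07 and 6.88 in Ramos. The Namalwa arrays coincided and the other pairs were lower, and the mean was -0.21 (SE 0.11, limma adjusted p = 0.493). It was -0.31 without Namalwa and -0.096 without Raji.

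All 4 genes of chromatin assembly and histone mRNA were lower in all 3 lines, with a median of -0.37. CHAF1A, the large subunit of chromatin assembly factor 1, had the widest pair of any member: it stood at 8.20 and 7.19 in Namalwa, against 7.94 and 7.43 in Raji and 7.94 and 7.36 in Ramos. All empty values lay above all miR26a values. The mean was -0.70 (SE 0.12, 95% interval -0.97 to -0.42), a 1.62-fold difference (limma adjusted p = 0.0730). Its 2 other probe sets above the level minimum were at -0.44 and -0.64, and both were lower in all 3 lines. The mean of all its probe sets, with 1 below the minimum, was at -0.44. The Namalwa empty array is the one with the ACTB difference, and without Namalwa the CHAF1A mean was -0.54.

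CHAF1B, the middle subunit, stood at 6.47 and 6.10 in Namalwa, 6.04 and 5.43 in Raji, and 6.41 and 6.11 in Ramos, with a mean of -0.43 (limma adjusted p = 0.145). SLBP, which binds the stem-loop of histone mRNAs, stood at 9.82 and 9.39, 9.20 and 9.03, and 10.03 and 9.66, with a mean of -0.32 (limma adjusted p = 0.233). In both genes the low Raji level made the groups overlap. The histone chaperone ASF1B was at -0.27.

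**Figure D3:**
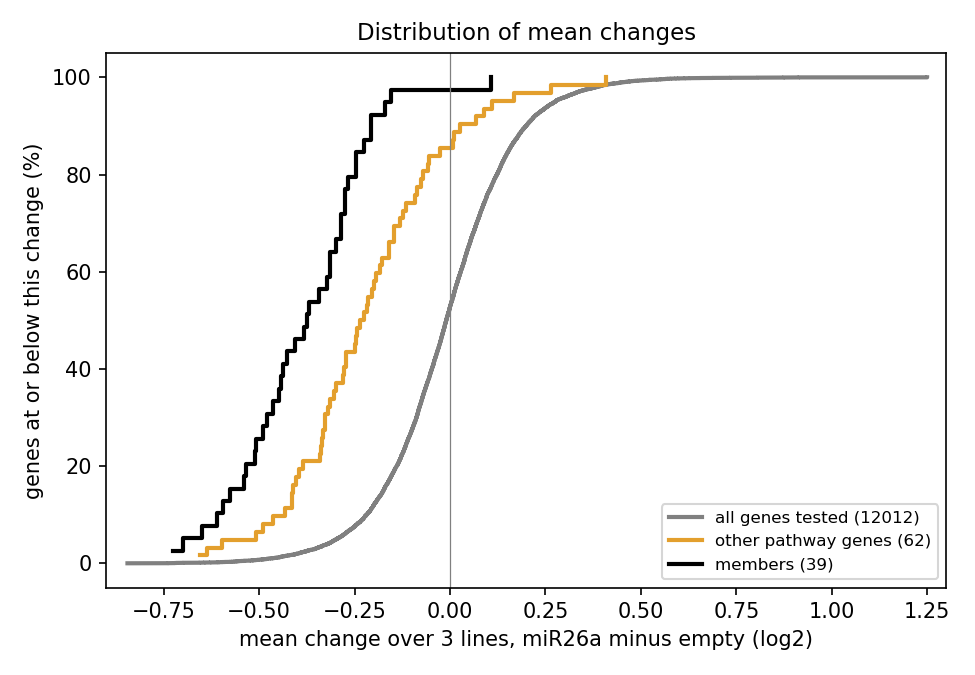
Cumulative share of genes (vertical axis, %) at or below each mean change (miR26a minus empty over 3 lines, log2, horizontal axis) for the 39 members, 62 other pathway genes and all 12012 genes tested. The curve of the members lies furthest left, with medians of -0.37, -0.23 and -0.01 in that order.

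Other genes of the same pathway were mostly lower too, with a smaller median. Of 66 further genes on a list of the same 5 steps, 62 were tested. In all 3 lines 43 of them were lower and 2 were higher, and 0 passed at an adjusted p of 0.05. At an unadjusted p under 0.05, 31 were lower and 2 higher, and the median was -0.23. MTBP and SHMT1 lay below the level minimum. SKP2, the F-box protein that targets the inhibitor p27, was at -0.64, and the fork proteins WDHD1 and CLSPN were at -0.66 and -0.60 (limma adjusted p = 0.0730, 0.0730 and 0.0826). With the mean of their probe sets WDHD1 was at -0.44, POLD3 at -0.22 and TONSL at -0.17, in place of -0.66, -0.46 and -0.43. CLSPN had a low level, between 4.29 and 5.15 on the 6 arrays, so its change includes a signal near the level minimum.

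GMNN, geminin, which binds and inhibits CDT1, was at -0.41, and the MCM-binding MCMBP and the origin subunit ORC3 were at -0.33 and -0.27. Cyclin A2 (CCNA2) was at -0.38 and the kinase adaptor CKS1B at -0.25. In nucleotide supply the thymidylate kinase DTYMK, CTP synthase (CTPS1) and the dUTPase DUT were at -0.27, -0.24 and -0.24, and POLD3, a subunit of polymerase delta, was at -0.46. Among chromatin genes, the replication-fork scaffold TONSL, the maintenance methyltransferase DNMT1 and the histone acetyltransferase HAT1 were at -0.43, -0.33 and -0.30. The 2 genes that were higher in all 3 lines were the small polymerase subunits POLD4, at 0.41, and POLE4, at 0.27 (limma adjusted p = 0.231 and 0.346).

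Further probe sets of the same members were read as a check of the hybridisation, since probe sets of 1 gene share their RNA and are no replicates. The 41 members had 79 probe sets, and 28 above the minimum, from 21 members, were not used for the values above. Of these 28, 26 had a mean change below 0 and 20 were lower in all 3 lines, with a median of -0.34. The exceptions in the mean were a CDK2 probe set at 0.03 and an MCM4 probe set at 0.25. That MCM4 probe set had levels of 4.70 to 5.31, was higher with miR26a in all 3 lines, and went against the other 4 of that gene, which were at -0.27, -0.32, -0.30 and -0.36. By line, 22 of the 28 were lower in Namalwa, 26 in Raji and 26 in Ramos.

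**Figure D4:**
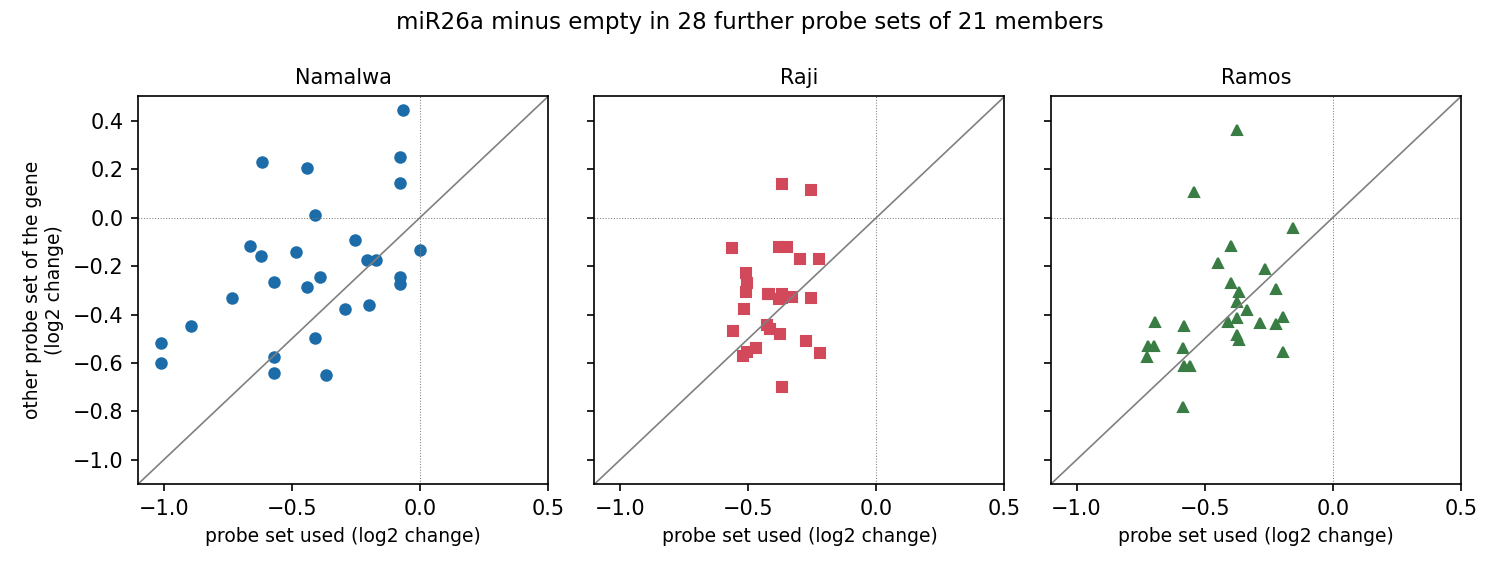
Change (miR26a minus empty, log2) of 28 further probe sets of 21 members (vertical axis) against that of the probe set used for the same gene (horizontal axis), with 1 panel per line and a line of equal change. Most points lie below 0 on the vertical axis: 22, 26 and 26 of the 28 points of the Namalwa, Raji and Ramos panels.

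The lines differed from each other in these genes by more than the groups did in several cases. Between Namalwa and Raji, 14 of the 39 members were higher and 6 lower in Namalwa at an adjusted p under 0.05, against 23.4% and 22.8% of all genes tested. Between Raji and Ramos, 6 were higher and 14 lower in Raji, against 26.1% and 24.4%. Namalwa and Ramos differed in 3 members, 2 higher in Namalwa (POLE2 and CCNE2) and 1 lower (MCM3), against 8.09% and 6.57%. In this fit the members' shares lay above the all-gene shares for genes lower in Raji, in both pairs with Raji, and below them in the other direction and for Namalwa against Ramos. Their median differences were 0.23 for Namalwa minus Raji and -0.16 for Raji minus Ramos, against -0.05 and 0.06 for all genes tested. Cyclic loess between arrays moved the 6 to 14 split for Raji and Ramos to 6 and 8, so that 20.5% of the members and 21.2% of all genes were lower in Raji. Without the group as a term the counts were 4, 10 and 2 in place of 20, 20 and 3, against 40.6%, 45.1% and 9.98% of all genes. In that fit the members lower in Raji were 7.69% against Namalwa and 17.9% against Ramos, below the 20.8% and 22% of all genes. The median differences of the members stayed at 0.23 and -0.16, and the change between groups counts as spread within a line in that fit. For Namalwa minus Raji, fewer members, and a smaller share of all genes, passed whichever of the 6 arrays was left out. These fits leave 1 array in a line. The median difference of the members was 0.25 without the Namalwa empty and 0.28 without the Raji empty array. For Raji and Ramos, 12 passed without the Ramos empty and 11 without the Ramos miR26a array, and in both fits 17.9% of the members were lower in Raji, against 18.3% and 18.6% of all genes. For Namalwa minus Ramos, fewer members, and a smaller share of all genes, passed whichever of the Namalwa and Ramos arrays was left out. The median difference of the members was -0.003 without the Namalwa empty and -0.02 without the Ramos empty array.

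Cyclin E1 differed most among the G1 genes. Its line means were 7.68, 6.53 and 7.39 in Namalwa, Raji and Ramos, so that Raji was lower than Namalwa by 2.23-fold (limma adjusted p = 1.26e-04) and lower than Ramos by 1.82-fold (limma adjusted p = 6.95e-04). The difference between Namalwa and Ramos did not pass (0.29, SE 0.14, limma adjusted p = 0.217). CDC25A ran in the order Ramos, Namalwa, Raji, with means of 8.24, 7.92 and 7.54, and Raji was lower than both (limma adjusted p = 0.0284 against Namalwa and 0.00100 against Ramos). Cyclin E2 was higher in Namalwa than in Raji by 0.61 and than in Ramos by 0.54.

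Licensing genes went both ways in Raji. MCM4 was highest there, with means of 8.68, 9.58 and 8.93 in Namalwa, Raji and Ramos, which is 1.87-fold above Namalwa (limma adjusted p = 4.02e-04) and 1.57-fold above Ramos (limma adjusted p = 0.00275). CDC6 was also highest in Raji, 1.61-fold above Namalwa and 1.73-fold above Ramos (limma adjusted p = 0.00212 and 8.15e-04). ORC1, by contrast, was lowest in Raji, 1.62-fold below Namalwa and 1.77-fold below Ramos (limma adjusted p = 0.00535 and 0.00184). MCM3 was lowest in Namalwa, by 0.44 against Raji and 0.64 against Ramos.

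At the fork, POLE2 was the only member that differed in all 3 pairs. Its means were 8.38, 7.82 and 7.10 in Namalwa, Raji and Ramos, and Namalwa exceeded Ramos 2.43-fold (limma adjusted p = 2.24e-04). RFC3 ran in the order Ramos, Namalwa, Raji, at 9.76, 9.37 and 8.73, and Ramos exceeded Raji 2.04-fold (limma adjusted p = 1.70e-04), while Ramos and Namalwa did not differ at the threshold (limma adjusted p = 0.0885). RFC2 and RFC4 were likewise lower in Raji than in both other lines, whereas GINS1 and FEN1 were higher there than in both.

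RRM1 was lower in Raji than in Namalwa by 1.53-fold and than in Ramos by 1.28-fold (limma adjusted p = 0.00277 and 0.0366), and TK1 was higher in Raji than in both (limma adjusted p = 0.0418 and 0.0106). CHAF1B was lower in Raji by 0.55 against Namalwa and 0.53 against Ramos, and SLBP by 0.49 and 0.73, each past the threshold. CHAF1A, GINS2 and PRIM1 did not differ between lines at the threshold. The CHAF1A differences were 0.01, 0.03 and 0.04 (SE 0.15 each).

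**Figure D5:**
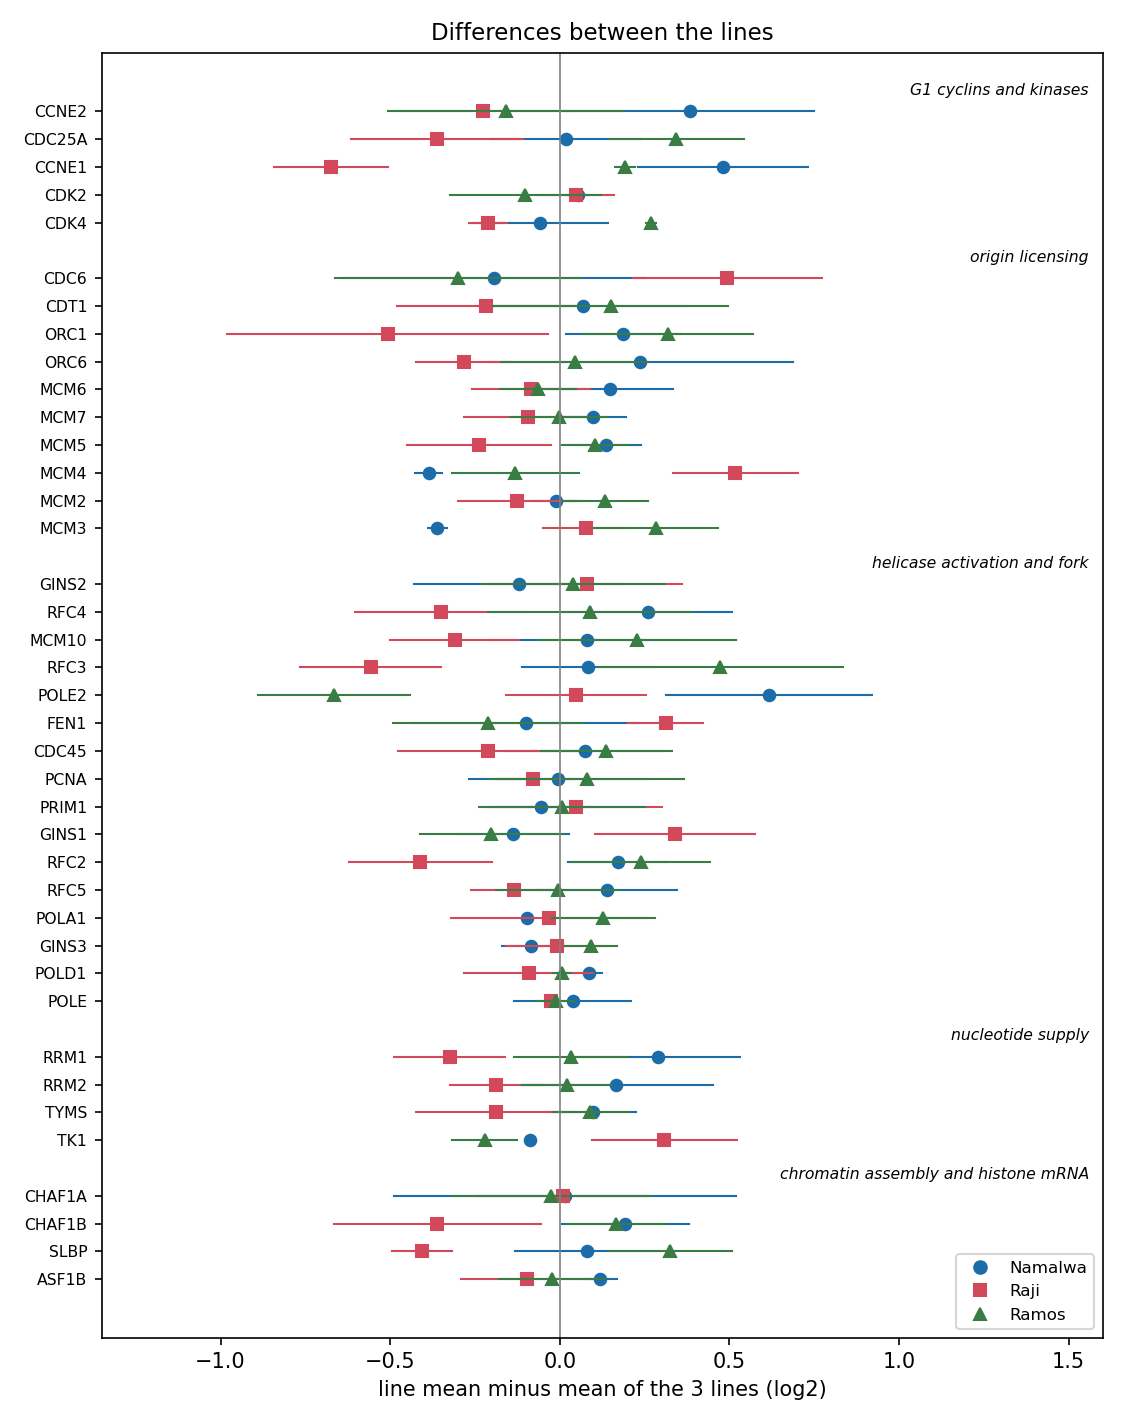
Mean of each line minus the mean of the 3 lines (log2, horizontal axis) for the 39 tested members, 1 symbol per line, with a horizontal bar that spans the empty and the miR26a array of the line. Raji stands lowest for CCNE1, RFC3 and SLBP and highest for MCM4, CDC6 and TK1, and POLE2 separates all 3 lines.

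Whether a line answered miR26a differently from the mean of the other 2 was tested on the 3 paired differences. With 1 pair per line, the spread comes from the other 2 lines, and a difference of the line and the noise of its single pair cannot be told apart. This test called 0 of 12012 genes (0%) for Namalwa, 25 (0.208%) for Raji and 0 (0%) for Ramos, and none of the called genes was a member. Among members the lowest adjusted p was 0.732 in Namalwa, for ORC6, and 0.515 in Raji, for ORC1 (limma). CDK4 and POLA1, which were above 0 in Namalwa, differed there from the other lines by 0.44 (SE 0.21) and 0.46 (SE 0.22), and TK1 by 0.31 (SE 0.22), with limma adjusted p of 0.770, 0.770 and 0.820. With 1 residual degree of freedom per gene, these values do not show that the lines answered alike.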

How the data were processed

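Biotin-labelled total RNA of 6 samples was read on Affymetrix U133 Plus 2.0 arrays. The authors deposited log2 intensities made with RMA, per the labels' design text and the submitters' processing notes (GCOS and RMA, versions not given in the sources used here). RMA gives all arrays one distribution, so a shift of all RNAs at once would not be seen. The table holds 54675 probe sets, and a filter on varying probe sets that the design text describes was not seen in it. It has 62 controls, and the annotation gives 1 gene symbol for 41091 probe sets, several for 1801 and none for 11721. Symbols were updated through Entrez IDs with a RefSeq table of GRCh38.p14.

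Nothing was normalised again. A gene took its probe set with the highest mean, and 12012 genes at or above a level of 4.42 (log2) were tested with limma 3.58.1 (R 4.3.3), with Benjamini-Hochberg adjustment and a threshold of 0.05. The line was a block for miR26a minus empty, and the group a block for pairs of lines. The labels pair the arrays by line. A line's deviations from the group means correlated at 0.861, 0.950 and 0.917 in Namalwa, Raji and Ramos between its 2 arrays, above every pairing of different lines. Deviations from a mean of so few lines lower the correlations between different lines by construction, so these values are no independent support for the pairing. The response test set each line's paired difference against the mean of the other 2. The scripts were tested on simulated data.

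Named with all values were, in each step, the 3 members with the smallest p between groups, the 2 with the largest difference between lines, and every member of mixed sign, plus up to 3 other pathway genes a step with the smallest p. ORC6, CDK2, PCNA, FEN1, POLD4, POLE4 and further members are given by their changes only, to account for every member. The members and lists were chosen with earlier results of these data known, so the counts are descriptions. Alternatives were other level minimums, probe set rules, scalings, blocks and priors, and leaving out each line or array.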

Additional observations from a re-analysis of the deposited data

Results flagged for a closer look

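Setting the single Raji difference (miR26a minus empty) against the mean of the Namalwa and Ramos differences called 25 of 12012 genes (0.208%, limma adjusted p under 0.05). None of the 39 tested members and none of the 62 other pathway genes was among them. The test has 1 residual degree of freedom per gene, and with 1 Raji pair a line's own response and the noise of that pair cannot be told apart. An example outside these lists is APOBEC3G, a cytidine deaminase, at 0.13, 1.75 and -0.19 in Namalwa, Raji and Ramos.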

How the results depend on the processing

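The test of miR26a minus empty called 0 genes as reported and 0 with no level minimum, the mean of a gene's probe sets, specific probe sets, median centring, cyclic loess, no replicate block or a random replicate block. It called 50 genes at the 75th percentile, 102 with a robust prior that follows intensity and 79 at an adjusted p under 0.1. Leaving out 1 line gave 0 (without Namalwa) to 203 (without Raji) genes, with 23 without Ramos. With all 3 lines kept, the count of members lower in all 3 stayed at 35 or 36 of 38 to 41, or at 26 of 28 with specific probe sets. The share of all genes was 17.9% to 22.6% there. With 1 line left out, 36 to 38 of 39 members were lower in both remaining lines, against 29.6% to 32.1% of all genes. The median change of the members was -0.33 with the mean of probe sets, -0.35 with specific probe sets and -0.36 with cyclic loess. It was -0.40 to -0.37 when a line was left out. CDK4 ran from -0.039 (without Namalwa) to 0.22 when a line was left out. Without Raji 12 of 34 named genes passed, members or not, against 1.69% of all genes. With the trend and robust prior 10 of 34 did, against 0.849%. Most of the 34 were named for a small p in this same comparison, so these counts are no independent support.

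Between lines, dropping the group as a block gave 4 members for Namalwa minus Raji and 10 for Raji minus Ramos, in place of 20 and 20, where 40.6% and 45.1% of all genes were called. Leaving out 1 array, with the line's lone array assumed to vary like the others, gave 12 to 17, 11 to 19 and 1 to 3 members for Namalwa minus Raji, Raji minus Ramos and Namalwa minus Ramos. The lowest counts came without the Namalwa empty array (12 and 1), the Ramos empty array (1) and the Ramos miR26a array (11). In each of these fits with the lowest counts, the share of all genes called for the same pair was also smaller than with every array kept. The fall in calls was thus not confined to the members. In the response test the trend and robust prior called 46 genes in place of 25. The cause of these changes was not tested. With 1 array per line and group, the number of arrays limits every value.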

Other observations

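A single probe set of RFC5, a clamp loader subunit, separated Raji from the other lines. It stood at 7.62 and 7.12 on the empty and miR26a arrays of Namalwa, 4.41 and 4.52 in Raji, and 7.36 and 7.06 in Ramos. The probe set used for RFC5 stood at 8.56 and 8.15, 8.21 and 7.96, and 8.40 and 8.03 in the same order, so that Raji was not apart there, nor in the third probe set of the gene, at 6.94 and 6.95, 7.20 and 6.87, and 7.30 and 6.79. These probe sets were picked after their values were seen, and which part of the transcript each reads was not analysed here.

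Outside the members, GINS4, the remaining GINS subunit, was uneven between lines. Its change was -1.14, -0.42 and 0.08 in Namalwa, Raji and Ramos, and its level was highest in Raji, 2.17-fold above Namalwa (limma adjusted p = 0.00333). CDK6, a partner of the D cyclins, was at -0.61, 0.12 and 0.09 in Namalwa, Raji and Ramos. Neither response passed the test between lines (limma adjusted p = 0.641 for GINS4 and 0.723 for CDK6, Namalwa against the other 2). Both were picked after their values were seen.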
